A study of Mus musculus with 25 samples.

Results

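The 7 genes described here encode subunits of the GABA-A receptor: the alpha subunits Gabra2, Gabra3, Gabra4 and Gabra5, the beta subunits Gabrb1 and Gabrb2, and the delta subunit Gabrd. They were taken by symbol from the gene tables of 3 experiments on hippocampal neuronal nuclei, and all 7 were listed in each table of 24411 genes. Their levels, their differences between the 2 groups of each experiment and their ratios within each library are given below.

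GABA-A receptors are chloride channels built as rings of subunits, and they carry most fast inhibition in the hippocampus. Alpha and beta subunits form the GABA binding sites, and the alpha subunit largely sets where a receptor sits and which drugs it binds. Receptors with alpha4 and delta lie outside synapses of dentate granule cells and respond to ambient GABA, alpha5 is abundant in CA1 and CA3 pyramidal cells, and alpha2 is found at synapses, including those on the axon initial segment.

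All libraries came from NeuN-sorted nuclei of the hippocampus of male wild-type C57BL/6 mice. The aging experiment compared 3 young (3 months) with 2 old (18 months) libraries, each from 1 mouse. The overexpression experiment compared 5 Control libraries with 7 labelled Ftl1OE, from young mice injected in CA1 and the dentate gyrus with virus that expressed GFP or Ftl1, the ferritin light chain, from the neuronal synapsin-1 promoter. The knockdown experiment compared 4 Control libraries with 4 labelled Ftl1KD, from aged mice injected in the same regions with virus carrying a short hairpin RNA against luciferase or against Ftl1. The sort kept all NeuN-positive nuclei, so uninfected neurons remained in the injected groups. No source used here says whether each library of the injected groups came from a separate mouse, so their p-values apply to libraries, not to mice. The p-values of single members in the knockdown experiment rest almost wholly on variance shared across genes, as given below.

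The alpha members differ at a codon that is a well known determinant of drug binding: alpha2, alpha3 and alpha5 carry a histidine there and bind classical benzodiazepines, whereas alpha4 carries an arginine and does not. An alignment of the 7 coding sequences of GENCODE M21 found a single column with this pattern. The 27 bases around it are shown because they divide the alpha members into those 2 classes, with the codon in capitals.
Gabra2: gataccttctttCACaatgggaaaaag
Gabra3: gataccttcttcCACaatggtaaaaaa
Gabra5: gacacgttcttcCACaacggcaagaag
Gabra4: gatactttcttcAGGaatggaaagaaa
On GRCm38 the codon lies on the minus strand at chr5:71014505-71014507 in Gabra2, chrX:72501168-72501170 in Gabra3, chr7:57488891-57488893 in Gabra5 and chr5:71641152-71641154 in Gabra4. All 8 flanking codons encode the same residues in the 4 genes, and the windows differ there only in synonymous bases. It lies in exon 5 of the coding transcript used for Gabra2, Gabra3 and Gabra5 and in exon 4 of that for Gabra4. The longest run of identical aligned coding bases between any 2 of the 7 members was 24 bases, and their aligned coding bases were between 44.0% (Gabra4 and Gabrb1) and 70.8% (Gabrb1 and Gabrb2) identical.

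The members lie on 5 chromosomes. Gabra2 (chr5:70957597-71095849, minus strand), Gabra4 (chr5:71569749-71658308, minus strand) and Gabrb1 (chr5:71658113-72149037, plus strand) share a cluster on chromosome 5. The 5′ ends of Gabra4 and Gabrb1 overlap by 196 bases on opposite strands, and the sources used here do not say whether reads were counted by strand, so reads from that stretch cannot be told apart. Gabra5 lies at chr7:57407672-57510059 (minus strand), Gabrb2 at chr11:42419757-42629028 (plus strand), Gabra3 at chrX:72432681-72656848 (minus strand) and Gabrd at chr4:155384980-155398112 (minus strand). Gabrd has the shortest exon union, the total length of its annotated exons, with 2875 bases, and Gabrb1 the longest with 13838 bases.

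The libraries of the aging experiment held 7969282 to 9537872 reads and those of the overexpression experiment 9943996 to 17034325. The knockdown libraries held only 48902 to 358560 reads, and Rn45s, the ribosomal RNA precursor, took 30.3% to 55.3% of them. The neuron markers Rbfox3, Snap25, Syt1 and Map2 had reads in every group. Astrocyte and oligodendrocyte markers also had reads in every group of NeuN-sorted nuclei. In the overexpression experiment 5 oligodendrocyte markers summed to normalized counts of 18256 to 38820 per library and 5 astrocyte markers to 4322 to 28204. The 4 neuron markers summed to 15331 to 50935 there, so these ranges overlapped. Ftl1 did not follow the labels in either injected experiment, so the names Ftl1OE and Ftl1KD stand for labels only. Its normalized counts were 4580 to 28309 in Control and 4738 to 7663 in libraries labelled Ftl1OE, and 24.2 to 56.2 in Control and 106 to 140 in libraries labelled Ftl1KD. Control libraries 3 and 5 of the overexpression experiment stood apart from the other 10, with more reads from short genes, and the members' differences between groups are given with and without them below.

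Normalized counts are reads divided by a library's size factor, and they were divided by the exon union in kilobases to compare genes with each other. In young wild-type nuclei Gabra5 stood highest per kilobase and Gabra3 lowest. Gabra5 reached 605 ± 180 normalized counts per kilobase (SD, n = 3), with every library above every library of the next gene. Gabrb2 (342 ± 48.9), Gabrd (293 ± 42.7) and Gabra4 (280 ± 51.4) followed, and the ranges of neighbours in that order overlapped. Gabrb1 (209 ± 12.4) lay below all Gabra4 libraries, and its range overlapped that of Gabra2 (182 ± 44.4). Gabra3 followed with 121 ± 20.6, and it was below Gabra2 in 2 of 3 libraries.

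The order was not fixed by the annotation used for length or by the experiment. With the mean length of the annotated transcripts in place of the exon union, Gabrb2 led in young nuclei with 1166 normalized counts per kilobase, Gabra4 followed with 780, Gabra5 was next with 720 and Gabra3 remained lowest with 236. In the overexpression experiment the mean of Gabrd was highest in both groups by either length, with 1216 ± 805 (SD, n = 5) in Control and 907 ± 163 (SD, n = 7) in libraries labelled Ftl1OE per kilobase of exon union. Gabra5 followed with 811 ± 499 in Control and 894 ± 252 in libraries labelled Ftl1OE. By exon union Gabrd exceeded it in 2 of 5 and 2 of 7 libraries, and by mean transcript length in 3 of 5 and 7 of 7. The tables were normalized separately, so levels were not compared between experiments.

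**Figure D1:**
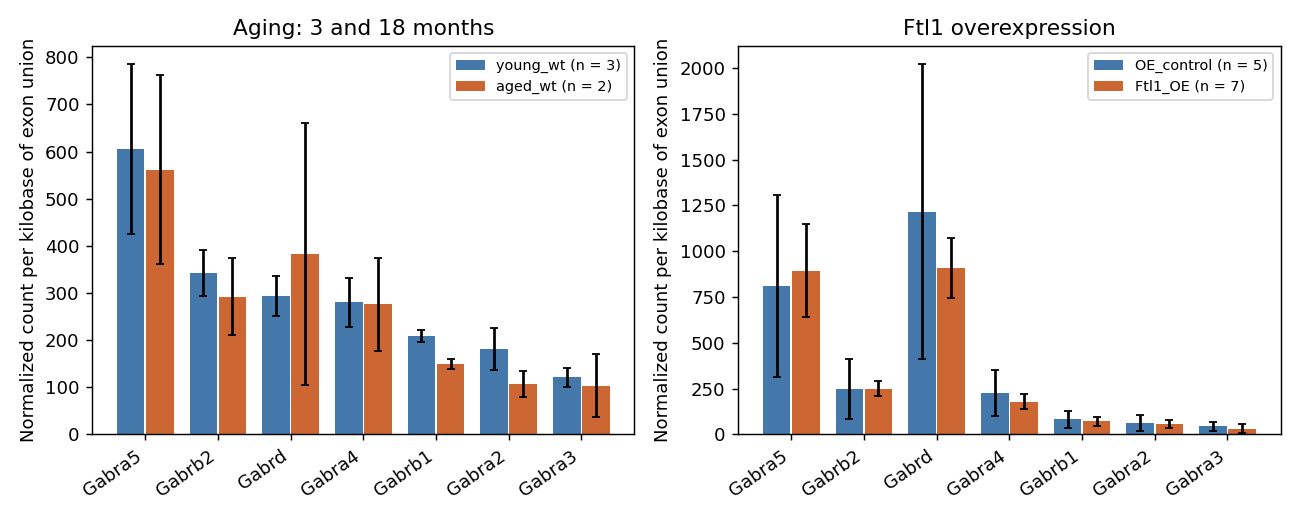
Mean normalized count per kilobase of exon union (bars, linear axis from 0) with SD (error bars) for the 7 subunit genes in the aging experiment (left, 3 young and 2 old libraries) and the overexpression experiment (right, 5 Control and 7 libraries labelled Ftl1OE). Gabra5 was highest in young nuclei at 605, and Gabrd had the widest spread in the overexpression Control libraries at 1216 ± 805.

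The aging comparison asked which genes differ in neuronal nuclei between 3 and 18 months. None of the 7 members passed the test in old against young nuclei, and 6 of 7 had lower means on the log scale, with Gabrd the exception. The median log2 difference of the members was -0.24, against -0.03 over all genes tested. By limma, 0 of 13712 genes passed the threshold (0% called), 1089 had an unadjusted p under 0.05, edgeR called 0 and DESeq2 called 138, none of them a member. Rn45s took 5.91% and 6.42% of the reads in the old libraries and 2.63% to 4.0% in the young ones, and its part in the differences was not tested. In bulk nuclei, fewer cells of a type and less RNA per cell cannot be told apart.

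Gabra2 had normalized counts of 1001, 1623 and 1545 in young and 973 and 674 in old libraries. Both old libraries lay below all young ones, the nearest by little. The log2 difference was -0.75 ± 0.32 (SE), with an unadjusted p of 0.036 and an adjusted p of 0.61 by limma. It was -1.01 without old library 2 and -0.48 without old library 3, where the unadjusted p was 0.23. Gabrb1, a beta subunit of the same cluster, had 2923, 2704 and 3042 in young and 2183 and 1976 in old libraries. These groups were also apart, with a log2 difference of -0.47 ± 0.25 (SE) and an adjusted p of 0.65. Groups apart in the lower direction were found in 2 of 7 members and in 12.5% of all genes tested.

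The other alpha members overlapped between ages. Gabra3 had 553, 391 and 481 in young and 218 and 589 in old libraries. The old libraries held both the lowest and the highest value, and the log2 difference was -0.39 ± 0.43 (SE). Gabra4, the partner of delta, had 1368, 1987 and 1751 in young and 1256 and 2102 in old libraries, with a difference of -0.05 ± 0.31. Gabra5 had 1191, 2026 and 2184 in young and 1247 and 2094 in old libraries, with a difference of -0.11 ± 0.34. The old libraries of Gabra4 lay on either side of all young ones, and those of Gabra5 lay within the young range.

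Gabrb2, the more abundant beta member per kilobase, had 2305, 1816 and 2394 in young and 1493 and 2222 in old libraries, with a log2 difference of -0.24 ± 0.29 (SE). Gabrd had 773, 772 and 985 in young and 536 and 1663 in old libraries. Its old libraries lay on either side of all young ones, and the difference was 0.17 ± 0.41. Without old library 3 it was -0.64, so the sign of the Gabrd difference rested on that library. Of the 2 old libraries, library 3 was the higher in 5 of 7 members, all but Gabra2 and Gabrb1. The dentate granule cell markers summed to 4230 and 6360 in the 2 old libraries and to 3624 to 4722 in the young ones, and the part of granule cell content in these values was not tested.

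**Figure D2:**
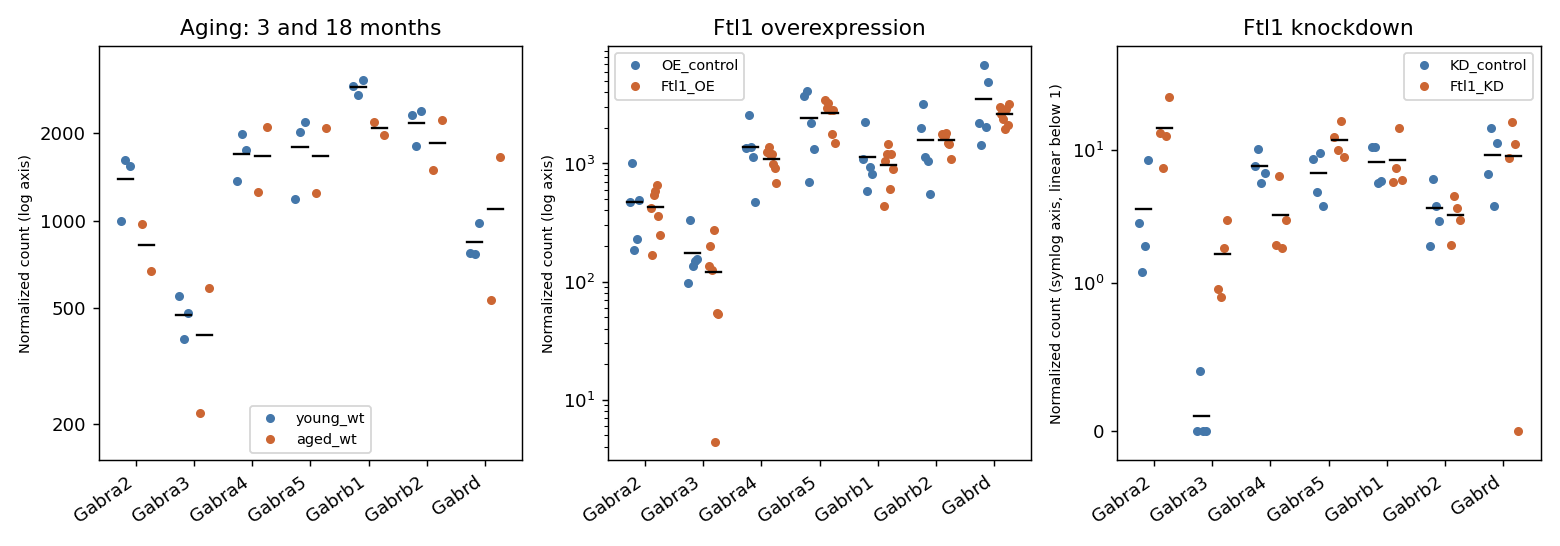
Normalized counts of the 7 subunit genes in each library (points) with group means (black lines) in the aging experiment (left, log axis, aged_wt being the old libraries), the overexpression experiment (middle, log axis) and the knockdown experiment (right, symmetric log axis that is linear below 1). The 2 old libraries sat below the 3 young ones for Gabra2 and Gabrb1, and the knockdown values lay between 0 and 25.0.

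Ratios within a library hardly depend on its size factor at these levels, and they ask whether one subunit moved against another. With 3 and 2 libraries the exact two-sided permutation test cannot go below p = 0.1, so no ratio could pass. Gabra4/Gabra2 had log2 ratios of 0.45, 0.29 and 0.18 in young and 0.37 and 1.64 in old libraries, a difference of 0.70 (exact p = 0.2, adjusted p = 0.5 over 5 ratios). Gabra5/Gabra2 had 0.25, 0.32 and 0.50 in young and 0.36 and 1.63 in old libraries, a difference of 0.64 (exact p = 0.2, adjusted p = 0.5). In both ratios old library 2 lay within the young range and only old library 3 stood above it.

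The remaining ratios overlapped more widely. Gabrd/Gabra4 differed by 0.22 (exact p = 0.6), Gabra3/Gabra2 by 0.36 (exact p = 0.7) and Gabrb2/Gabrb1 by 0.23 (exact p = 0.4). All 5 ratios were highest in old library 3, and 3 of the 5 differences changed sign without it. Its length index, defined below, was also the highest at 0.30, against -0.30 to 0.13 in young libraries and 0.07 in old library 2. The nuclear RNAs Meg3 (54950) and Snhg11 (36146) were lowest in old library 3, while Malat1 (142070) was within the range of the other libraries. The part of these measures in the ratios was not tested.

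**Figure D3:**
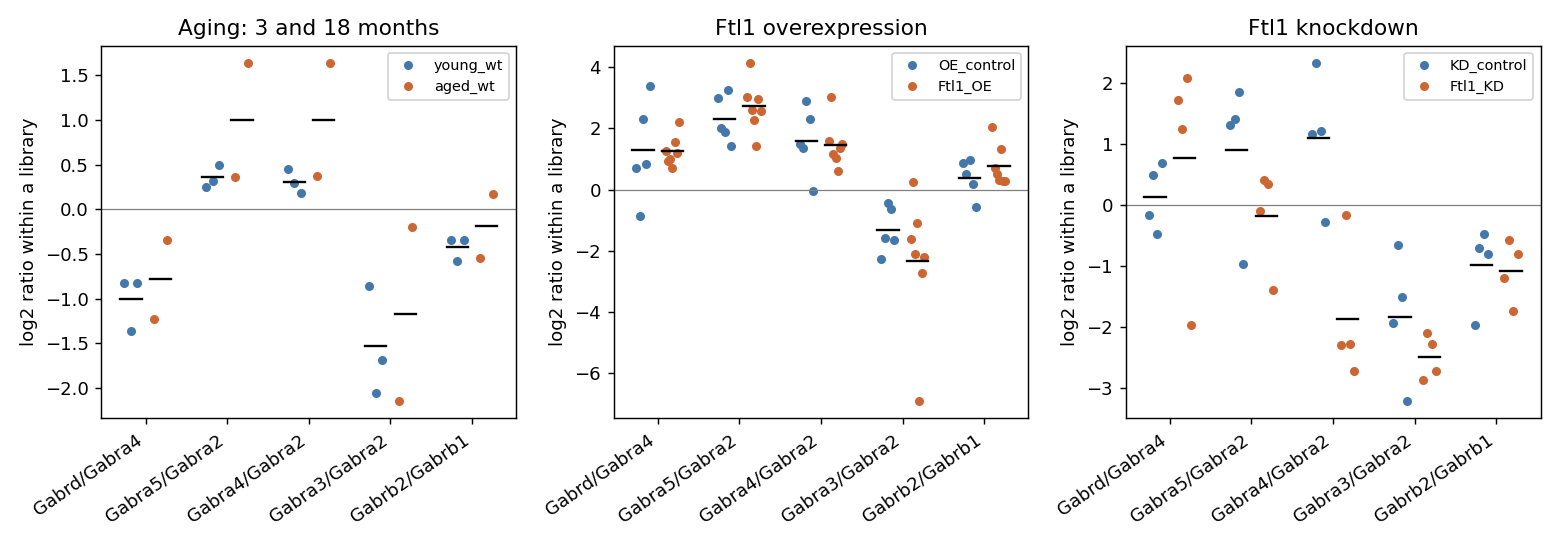
Log2 ratios of 5 subunit pairs within each library (points) with group means (black lines) in the 3 experiments. Old library 3 was the highest of its experiment in all 5 ratios, Control library 5 reached 3.39 for Gabrd/Gabra4, and the knockdown groups lay furthest apart for Gabra4/Gabra2.

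The overexpression comparison asked how nuclei of young mice differ after Ftl1 virus. No member passed the test and no member had groups apart, where 0.582% of all genes did. The median log2 difference of the members was -0.16, against 0.10 over all genes tested. By limma 0 of 14099 genes were called (0%), 1023 had an unadjusted p under 0.05, edgeR called 0 and DESeq2 called 101, none of them a member.

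Gabra3 had normalized counts of 96.4, 334, 135, 149 and 155 in Control libraries, and in libraries labelled Ftl1OE the lowest was 4.42, the median 125 and the highest 272. The difference was -1.06 ± 0.81 (SE, adjusted p = 0.75), and Ftl1OE library 5, with 5 reads, held the lowest value. Without that library the difference was -0.43, with all libraries it was -0.50 by edgeR and -0.53 by DESeq2, and without Control libraries 3 and 5 it was -1.15. Gabra5 had 3761, 4079, 691, 2208 and 1316 in Control and a lowest of 1482, a median of 2834 and a highest of 3471 in libraries labelled Ftl1OE. Its difference was 0.36 ± 0.38, and the Control libraries held both the lowest and the highest values. Without Control libraries 3 and 5 the Gabra5 difference was -0.34.

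Gabra4 had 1339, 2583, 1387, 1144 and 470 in Control and a lowest of 689, a median of 1200 and a highest of 1366 in libraries labelled Ftl1OE, with a difference of -0.18 ± 0.32 (SE). Gabra2 had 472, 1001, 185, 231 and 487 in Control and a lowest of 167, a median of 423 and a highest of 652 in libraries labelled Ftl1OE, with a difference of -0.04 ± 0.44. For both genes the spread between Control libraries exceeded that between libraries labelled Ftl1OE. Without Control libraries 3 and 5 the differences were -0.57 for Gabra4 and -0.31 for Gabra2, and neither passed the test.

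The beta members gave differences of -0.16 ± 0.34 for Gabrb1 and 0.23 ± 0.33 for Gabrb2 (SE). Gabrb2 had 1986, 3183, 1132, 1059 and 550 in Control libraries, and all 7 libraries labelled Ftl1OE lay within that range, between 1091 and 1804 with a median of 1710. Gabrb1 had 1099, 2247, 583, 928 and 822 in Control libraries, and between 438 and 1457 with a median of 1059 in libraries labelled Ftl1OE. Without Control libraries 3 and 5 the differences were -0.53 for Gabrb1 and -0.27 for Gabrb2, and neither passed the test.

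Gabrd had 2194, 1428, 6852, 2055 and 4945 in Control libraries, and between 1966 and 3219 with a median of 2618 in libraries labelled Ftl1OE. Control libraries 3 and 5 held the highest values of all 12 libraries and Control library 2 the lowest. The difference was -0.19 ± 0.32 (SE, adjusted p = 0.88) with all libraries and 0.47 without Control libraries 3 and 5, where it did not pass the test either.

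The ratio of Gabrd to its usual alpha partner showed the same libraries. Gabrd/Gabra4 had log2 ratios of 0.71, -0.85, 2.30, 0.84 and 3.39 in Control libraries, and from 0.71 to 2.22 with a median of 1.20 in libraries labelled Ftl1OE. The group means were 1.28 ± 1.63 (SD, n = 5) and 1.27 ± 0.50 (SD, n = 7), with a difference of -0.01 (exact permutation p = 0.99). Without Control libraries 3 and 5 the difference was 1.03 (exact permutation p = 0.025, adjusted p = 0.13). Then 6 of 7 libraries labelled Ftl1OE lay above all 3 remaining Control libraries. That exclusion was chosen after seeing the data. Control libraries 3 and 5 held the highest ratios of all libraries, so leaving them out raised the difference by construction. With all libraries none of the 5 ratios passed the test, and the adjusted p was between 0.71 and 0.99.

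The Gabrd/Gabra4 ratio moved with a library's balance of short and long genes. A length index was computed for each library as the median log2 deviation of genes with an exon union of at most 2 kb minus that of genes with at least 6 kb. It was 1.09 and 0.82 in Control libraries 3 and 5, -0.63 in Control library 2 and between -0.46 and 0.22 in the other 9. Over the 12 libraries the index and the log2 ratio had a Pearson r of 0.76 (permutation p = 0.0039) and a Spearman rho of 0.59 (permutation p = 0.048). Without Control libraries 3 and 5, the 2 farthest from the median index, r was 0.54 (permutation p = 0.097). Leaving them out also narrowed the range of the index, so how far the relation rested on them cannot be told.

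Gabrd has a shorter exon union than Gabra4, which has 6083 bases. Malat1, a nuclear RNA, was lowest in the same libraries, with normalized counts of 23359 and 32204 against 44897 to 218070 in the other 10. The 5 dentate granule cell markers, among them C1ql2, summed to 24134 and 18887 there, against 9948 to 20636 in the others. Control library 3 was thus above, and Control library 5 within, the range of the others for these markers. The part of gene length, nuclear RNA and granule cells in the Gabrd values was not tested.

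**Figure D4:**
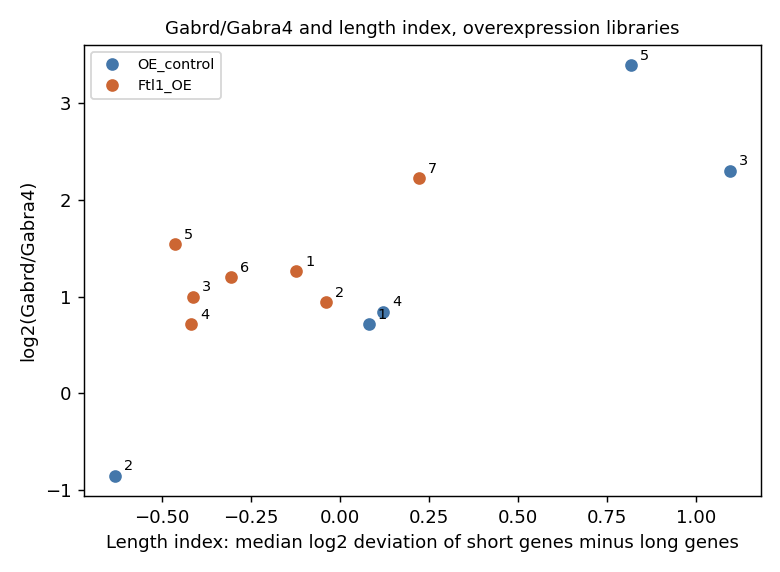
Log2 ratio of Gabrd to Gabra4 (vertical axis) against the length index (horizontal axis, log2 units) in the 12 libraries of the overexpression experiment, numbered by replicate. Control libraries 3 and 5 lie far right at 1.09 and 0.82, and r falls from 0.76 to 0.54 without them.

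The members did not vary as a single group across the 12 overexpression libraries. After centring in each group, Gabra4 and Gabrb2 had the highest correlation among the members, with a Pearson r of 0.93, and Gabrb2 ranked 30 among 10474 genes for likeness to Gabra4. Gabra5 followed Gabrb2 with an r of 0.71. Gabrd ran against all 6 other members, with r from -0.87 (Gabra5) to -0.24 (Gabra3). These values are descriptions over 12 libraries, Control libraries 3 and 5 included, that share 1 table and its size factors.

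The genes with at least 100 mean normalized counts whose pattern was most like each member's were named by the same measure over the same 12 libraries. For Gabrd they were Fam69b (r = 0.99), Atp6v0b (0.99) and Creb3 (0.99), whose exon unions are 2051 to 2476 bases. Those of the genes named below for the other members, where known, ran from 2731 bases (Rerg, for Gabrb1) to 20914 (Akap13, for Gabra2). Ubxn2a, named for Gabra4, had 2820 and Gtf2h1, named for Gabra5, 2984. The part of length in these patterns was not tested. Scn2a1 (0.98), Camk4 (0.97) and Ubxn2a (0.96) were most like Gabra4, and Bdnf (0.98), Lrrn1 (0.97) and Tgoln1 (0.96) most like Gabrb2. Gabra5 was followed by Ccpg1 (0.98), Gtf2h1 (0.98) and Gpr22 (0.97), and Gabrb1 by Neto1 (0.95), Rerg (0.94) and Wdr48 (0.92). For Gabra2 the nearest were Akap13 (0.93), Kansl1l (0.92) and E330033B04Rik (0.92), and for Gabra3 Pcsk1 (0.94), Elmo1 (0.92) and Pigg (0.92).

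The knockdown comparison asked how nuclei of aged mice differ after the hairpin against Ftl1. At this depth no member reached the mean normalized count of 10 set for testing, so 0 of 7 members entered that test, in which 354 of 1460 genes (24.2%) were called. With no filter 13393 genes were tested, 334 of them were called (2.49%), and 1 member, Gabra2, was among them. In that fit the median log2 difference was 0.0008 over the members and -0.12 over all genes. The 334 calls were 124 higher and 210 lower, and with the median of each library set equal they were 160 higher and 154 lower.

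Gabra2 was higher in libraries labelled Ftl1KD. It had 3, 3, 1 and 20 reads in Control and 14, 8, 7 and 17 reads in libraries labelled Ftl1KD, which came to normalized counts of 2.83, 1.21, 1.87 and 8.36 against 13.4, 7.22, 12.8 and 25.0. The groups overlapped by 1 library each, Control library 5 being above Ftl1KD library 3. The log2 difference was 1.88 ± 0.50 (SE) with an adjusted p of 0.011 by limma, 0.037 by edgeR and 0.023 by DESeq2. In this fit the limma SE and p-value rest almost wholly on variance shared across genes, and little on the spread of Gabra2 itself. The call was lost when any of the 8 libraries was left out, with adjusted p from 0.15 to 0.36. In 7 of those 8 fits no gene at all was called. In the fit of genes with a mean of at least 0.5 it was lost without Control library 2 or 3 or Ftl1KD library 1 or 5. With each library's median set equal, the median of all genes moved from -0.12 to -0.01 and the Gabra2 difference was 1.99.

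The other alpha members did not pass the test with no filter. Gabra4 had 7.55, 10.1, 5.62 and 6.69 in Control and 1.92, 6.31, 1.82 and 2.94 in libraries labelled Ftl1KD. Only Ftl1KD library 3 reached the Control range, and the log2 difference was -1.09 ± 0.55 (SE, adjusted p = 0.37). Gabra5 had 8.49, 4.84, 9.36 and 3.76 in Control and 12.5, 9.92, 16.4 and 8.82 in libraries labelled Ftl1KD, with a difference of 0.80 ± 0.45 (adjusted p = 0.43). Here only Ftl1KD library 5 fell within the Control range.

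Gabra3 was nearly without reads. It had 1 read over all 4 Control libraries and 1, 1, 1 and 2 reads in the libraries labelled Ftl1KD, a ratio of 9.56 after allowing for depth, with an exact 95% interval of 1.07 to 452 that covers counting error only. The groups did not overlap, as in 2.9% of genes with a mean of 0.5 to 10, and 3 of 4 Control libraries were at 0, which allows up to 1.25 to 5.62 normalized counts in them. No member had groups apart in the lower direction, where 3.63% of such genes did.

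Gabrb1 had 10.4, 10.5, 5.62 and 5.85 in Control and 5.75, 7.22, 14.6 and 5.88 in libraries labelled Ftl1KD, with a log2 difference of 0.0008 ± 0.47 (SE). Gabrb2 had 1.89, 6.05, 3.75 and 2.93 against 1.92, 4.51, 3.64 and 2.94, with a difference of -0.09 ± 0.62. Differences of up to 0.92 for Gabrb1 and 1.32 for Gabrb2 in size lie within the 95% intervals. Gabrd had 6.61, 14.5, 3.75 and 11.3 in Control and 8.63, 16.2, 10.9 and 0 in libraries labelled Ftl1KD. Its difference was -0.45 ± 0.49, and without Ftl1KD library 5, where a count of 0 allows up to 4.41, it was 0.46.

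**Figure D5:**
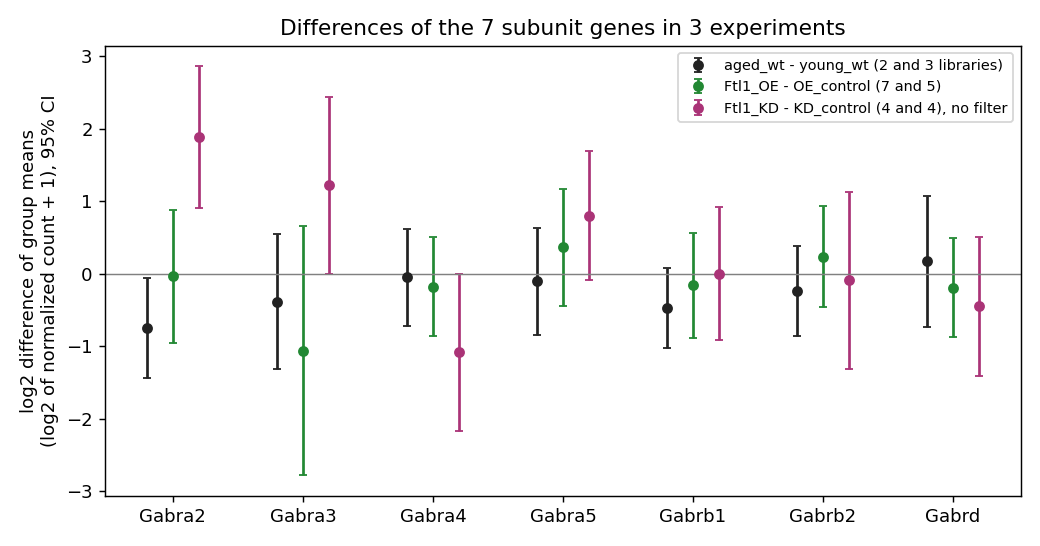
Log2 difference of group means (points) with 95% confidence intervals (lines) of the 7 subunit genes in the aging, overexpression and knockdown experiments, the last from the fit with no filter. The intervals of Gabra2 in aging (-0.75) and Gabra4 in knockdown (-1.09) lay below 0 and that of Gabra2 in knockdown (1.88) above 0, and of these only the last passed the test adjusted over all genes. The Gabra4 interval in knockdown reached up to -0.0018, and the knockdown intervals rest almost wholly on variance shared across genes.

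Within libraries, Gabra4/Gabra2 showed the largest shift of the knockdown experiment. Its log2 ratios were 1.16, 2.33, 1.20 and -0.28 in Control and -2.31, -0.17, -2.29 and -2.72 in libraries labelled Ftl1KD, a difference of -2.97. The groups overlapped only through Control library 5 and Ftl1KD library 3, and the test gave an exact permutation p of 0.057 and an adjusted p of 0.29, where 0.029 is the smallest p that 4 against 4 allows. Gabra5/Gabra2 differed by -1.09 (exact p = 0.17), Gabrd/Gabra4 by 0.64 (exact p = 0.6) and Gabrb2/Gabrb1 by -0.09 (exact p = 0.8). These ratios rest on few reads and carry the pseudocount of 1 added to each value. Gabra3/Gabra2 is not read here, because Gabra3 was at 0 in 3 of 4 Control libraries.

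Markers and library measures moved with the knockdown groups. Over 8 interneuron markers the summed normalized counts were 26.8 to 67.8 in Control and 55.6 to 78.3 in libraries labelled Ftl1KD, 1 of the 2 markers tested, Gad1, was called higher, and Vip was at 0 in all libraries labelled Ftl1KD. The 5 dentate granule cell markers summed to 35.6 to 85.9 in Control and 16.2 to 29.8 in libraries labelled Ftl1KD, with C1ql2 the 1 tested and called lower. CA3 markers summed to 14.5 to 22.5 and 2.94 to 13.5, with none tested, and CA1 markers to 50.6 to 85.7 and 35.5 to 70.5, with 1 of 3 tested called lower. Astrocyte markers summed to 14.98 to 36.8 and 36.98 to 55.8, and oligodendrocyte markers to 31.4 to 64.1 and 7.35 to 14.4. Malat1 was at 250 to 572 in Control and 77.9 to 143 in libraries labelled Ftl1KD, and the length index was between -0.67 and -0.11 in Control and between 0.33 and 0.39 in libraries labelled Ftl1KD. The part of these shifts in the Gabra2 and Gabra4 values was not tested.

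Of the other GABA-A subunits reported here, 9 genes in all, Gabrg1 and Gabrg3 passed the filter in the aging and overexpression experiments, with 0 called by limma. The medians of these 2 genes were -2.36 and 0.87, against -0.03 and 0.10 over all genes tested. Gabrg1, a gamma subunit next to Gabra2 on chromosome 5 (chr5:70751047-70842617), had 117, 152 and 114 in young and 18.8 and 0.919 in old libraries. The old libraries lay below all young ones, as in 12.5% of all genes tested. The log2 difference was -4.37 ± 1.05 (SE) with an unadjusted p of 0.0013 by limma. The adjusted p was 0.44 by limma, 0.56 by edgeR and 0.035 by DESeq2, so the call depended on the tool. The difference was -6.06 without old library 2 and -2.69 without old library 3. In the overexpression experiment Gabrg1 ranged from 0 to 247 in Control and from 8.37 to 538 in libraries labelled Ftl1OE. The log2 difference there was 1.82 for Gabrg1 (adjusted p = 0.73 by limma) and -0.07 for Gabrg3, so the median of 0.87 came from Gabrg1. Gabrg1 was at 0 and 9.28 in Control libraries 3 and 5, and without them its difference was -0.57. That exclusion was chosen after seeing the data, and the sign of the Gabrg1 difference depended on it.

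Gabrg3, a gamma subunit beside Gabra5 on chromosome 7, had 45.6 to 65.7 in young and 34.0 and 60.3 in old libraries, which overlapped. The 7 remaining genes were at low levels. Gabra6, an alpha subunit of cerebellar granule cells, had 0 to 1.06 in young and 3.95 and 26.6 in old libraries, and was at 0 in all overexpression libraries. Gabrr2 had 3.18 to 16.9 in young libraries and 0 in both old ones. Gabre, Gabrq and Gabrr1 had at most 2.12, 15.97 and 2.66 in the aging experiment and 11.6, 52.6 and 5.26 in the overexpression experiment, and Gabrp and Gabrr3 were at 0 in every library of the 3 experiments. In the knockdown experiment Gabrg1 and Gabrg3 had 4 reads each over the 8 libraries and the other 7 had none.

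Genes of the inhibitory postsynapse and receptor trafficking were measured as a list of 17, all tested in the aging and overexpression experiments with 0 called in each. Their median log2 differences were -0.08 in aging and 0.03 in overexpression. Nsf, an ATPase that drives membrane fusion, had the highest mean of the list in both, with 7134 ± 864 in young and 6628 ± 1689 in old libraries of the aging experiment (SD). Shisa7, which regulates GABA-A receptor trafficking and gating, followed in aging with 3117 ± 149 in young and 3528 ± 2.25 in old libraries. In the overexpression experiment Gabarapl1, a relative of the GABA-A receptor-associated protein, followed with a difference of -0.42 ± 0.23 (SE, adjusted p = 0.70).

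In the knockdown experiment 6 of those 17 genes were tested and 1 was called, against 24.2% of all genes tested. Shisa7 fell by 1.45 on the log2 scale, from 10.4, 17.7, 13.1 and 18.0 in Control to 5.75, 4.51, 1.82 and 8.82 in libraries labelled Ftl1KD, with an adjusted p of 0.049 by limma. The call was lost in 7 of 8 fits that left out 1 library (adjusted p up to 0.14), all but that without Ftl1KD library 5. It was also lost with no filter (0.056), TMM scaling (0.053), median centring (0.069) and a pseudocount of 0.5 (0.058). The list's median was -0.23, against -0.01 over all genes tested.

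Genes that make, package, take up or break down GABA were a list of 7. In aging 6 were tested and 0 called, with a median of -0.18, and in overexpression 7 were tested and 0 called, with a median of 0.08. Gad1 and Gad2, which make GABA, had the highest means in aging. Gad1 had 1601, 1654 and 2046 in young and 1182 and 1570 in old libraries, with a log2 difference of -0.37 ± 0.28 (SE, adjusted p = 0.74). Gad2 had 651, 909 and 902 in young and 578 and 562 in old libraries, with a difference of -0.51 ± 0.30 (adjusted p = 0.69). The old libraries lay below the young ones for both genes, as in 12.5% of all genes tested. In overexpression Gad1 and Abat, which breaks down GABA, had the highest means, with differences of 0.29 ± 0.25 and -0.06 ± 0.22 (SE). In the knockdown experiment Gad1 was the 1 gene tested and it was called higher, where 24.2% of all genes tested were called. It rose from 16.99, 19.8, 11.2 and 4.18 in Control to 27.8, 33.4, 41.9 and 33.8 in libraries labelled Ftl1KD (log2 difference 1.49 ± 0.36, SE, adjusted p = 0.0038). Among genes with a mean of at least 10 the call held without any 1 library. With no filter it was lost without any 1 library (adjusted p from 0.20 to 0.33) and with the replicate number as a block (0.57). In those fits no gene at all was called, except 45 without Control library 3. With a minimum mean of 0.5 the Gad1 call was lost without Control library 3 (0.055) or 5 (0.088).

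Chloride transporters and GABA-B receptor subunits were a list of 4. All 4 were tested in aging and overexpression with 0 called, and the medians were 0.28 and 0.11. Slc12a5, the neuronal chloride extruder, had 2068, 2037 and 2297 in young and 3803 and 3175 in old libraries. The log2 difference was 0.71 ± 0.26 (SE, adjusted p = 0.55). Gabbr1, a GABA-B receptor subunit, had a difference of 0.14 ± 0.30 in aging. In the knockdown experiment it was the 1 called of 2 genes tested, against 24.2% of all genes tested. It fell by 1.21 on the log2 scale (SE 0.35, adjusted p = 0.013), from 21.7, 39.1, 41.2 and 52.3 in Control to 13.4, 18.9, 7.29 and 29.4 in libraries labelled Ftl1KD, with groups that overlapped. The call was lost without Control library 5 (adjusted p = 0.057) or Ftl1KD library 4 (0.070). With no filter it was lost without any 1 library (adjusted p from 0.22 to 0.47), in fits that called few or no genes. It was also lost there with a pseudocount of 5 (0.056). With a minimum mean of 0.5 it was lost without Control library 2, 3 or 5 or Ftl1KD library 1 or 4. The median of the 2 genes tested was -0.66.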

How the data were processed

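Nuclear RNA was sequenced from 25 libraries. According to the study's methods, the authors used STAR for alignment to the mm10 transcriptome, RSEM for gene counts and DESeq2 for normalization. The annotation release is not given in the sources used here. The values the authors deposited are a signal, read counts divided by a size factor, with each of the 3 tables normalized separately. The authors' own comparison columns (mean, fold change, errors and p-values) were not used. Whole reads were recovered for 100% of values (tolerance 0.01 reads).

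Values were tested as log2(normalized count + 1), so fold changes of low genes are understated, with limma 3.58.1 (trend in the prior variance) on genes with a mean of at least 10, and p-values were adjusted over all genes tested by Benjamini-Hochberg. A call needed an adjusted p of at most 0.05 and, in aging, an absolute log2 difference of at least 0.5. edgeR 4.0.16 and DESeq2 1.42.0 on recovered reads were alternatives. Since no member reached a mean of 10 in the knockdown table, its member values come from the fit with no filter. Subunit ratios were compared by exact two-sided permutation tests, adjusted over the 5 ratios of an experiment. Correlations used 100000 resamples. The fits on genes with a mean of at least 10 were tested on simulated data, and the knockdown fit with no filter was not. Coding sequences and exon unions come from GENCODE M21 (GRCm38), aligned with MAFFT 7.526.

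The text names all 7 members, from each list up to 4 called genes per direction by smallest adjusted p or, where none was called, the 2 with the highest mean, and the 3 genes most like each member. Members and lists were chosen with earlier results of these data known. The lists also held 4 genes that are not reported here. Replicates of the overexpression groups were numbered in deposit order.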

Additional observations from a re-analysis of the deposited data

Results flagged for a closer look

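In groups of 4 to 10 libraries, 6 values stood far from the rest of their group, with the gap to the nearest library above Dixon's 95% limit. They came from 48 groups of values, and chance flags about 1 in 20. In the overexpression experiment Gabra3 reached 334 in Control library 2, against 96.4 to 155 in the other Control libraries. The log2 Gabra4/Gabra2 ratio was 3.02 in Ftl1OE library 2, against 0.61 to 1.57 in the others of its group, where Gabra2 itself was lowest at 167. The log2 Gabra3/Gabra2 ratio was -6.91 in Ftl1OE library 5, against -2.71 to 0.25 in the others, and rested on 5 reads of Gabra3.

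In the knockdown experiment Gabra3 was at 0.403 (1 read) in Control library 2 and at 0 in the other Control libraries. Where all other values are at 0, any read is flagged, so the chance rate does not apply to this flag. Gabrb1 was 14.6 in Ftl1KD library 4, from 8 reads in the shallowest library, against 5.75 to 7.22 in the others. The log2 Gabra4/Gabra2 ratio was -0.17 in Ftl1KD library 3, against -2.72 to -2.29 in the others.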

How the results depend on the processing

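No planned setting called a member in the aging or overexpression experiments. In the knockdown experiment the count was 0 with each setting that kept the filter, since no member was tested, and 1 (Gabra2) with no filter. With no filter it was also 1 with other pseudocounts, TMM, median centring, edgeR and DESeq2, and leaving out single libraries gave 0 each time, or 0 to 1 with a minimum mean of 0.5. With the replicate number as a block the count was 0 in aging, and in knockdown 0 with no filter (Gabra2 adjusted p of 0.55) and 0 with a minimum mean of 0.5. Of the called list genes, the block kept Gad1 (adjusted p of 0.020) and not Gabbr1 (0.12) or Shisa7 (0.28). The numbers did not pair the libraries (correlations of deviations from -0.05 to 0.02).

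No subunit ratio passed the threshold in any setting. The smallest p the test allows is 0.1 in aging and 0.029, before adjustment over 5 ratios, in knockdown, so in these experiments this says nothing about stability. Leaving out single libraries turned the sign of 6 ratio differences, which ranged from -0.22 to 0.67 (Gabrd/Gabra4), -0.62 to 1.33 (Gabra3/Gabra2) and -0.13 to 0.59 (Gabrb2/Gabrb1) in aging, from -0.55 to 0.52 (Gabrd/Gabra4) and -0.56 to 0.18 (Gabra4/Gabra2) in overexpression and from -0.42 to 0.13 (Gabrb2/Gabrb1) in knockdown. Without Control libraries 3 and 5, an alternative chosen after seeing the data, the overexpression differences of Gabrd/Gabra4 (1.03), Gabra5/Gabra2 (-0.036), Gabra5 (-0.34), Gabrb2 (-0.27) and Gabrd (0.47) reversed; the cause was not tested.

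Leaving out single libraries also turned the sign of uncalled member differences. Their ranges were -1.10 to 0.32 (Gabra3), -0.42 to 0.32 (Gabra4), -0.48 to 0.27 (Gabra5), -0.53 to 0.044 (Gabrb2) and -0.64 to 0.99 (Gabrd) in aging, -0.31 to 0.29 (Gabra2), -0.52 to 0.094 (Gabra4), -0.018 to 0.62 (Gabra5), -0.36 to 0.13 (Gabrb1), -0.084 to 0.55 (Gabrb2) and -0.45 to 0.11 (Gabrd) in overexpression, and -0.27 to 0.13 (Gabrb1), -0.30 to 0.13 (Gabrb2) and -0.91 to 0.46 (Gabrd) in knockdown. In knockdown Gabrb1, at 0.0008, reversed to -0.00067 (pseudocount 0.5), -0.014 (TMM), -0.091 (edgeR), -0.054 (DESeq2) and -0.15 (replicate block), -0.118 without Control library 5 among others, and Gabrb2 to 0.018 (median centring), 0.078 (replicate block) and 0.076 without Ftl1KD library 1. The no-filter settings combined with others and the minimum of 0.5 were also added after seeing the data. In knockdown the 7 members had 1 to 72 reads per group.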
